A study of Rattus norvegicus with 12 samples.

Results

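The mammary gland duct and alveolus are lined by luminal cells and wrapped by an outer layer of basal cells, most of which are myoepithelial. The genes described here are 10 markers of that outer layer. They were chosen by name as the keratin genes Krt5, Krt14 and Krt17, the transcription factor gene Tp63, the oxytocin receptor gene Oxtr, and the smooth muscle contractile genes Acta2, Myh11, Cnn1, Mylk and Tagln. All 10 were measured, by 13 of the 31099 probe sets of the array, and they are 10 of the 14217 genes tested.

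The RNA was that of abdominal mammary gland taken on postnatal day 64. The donors were female Sprague-Dawley rats on a diet of soy protein isolate or of the milk protein casein since day 30. Every group, controls included, had lost its ovaries on day 50 and with them most of its own estrogen, and the E2 groups then had estradiol (E2) given back by mini-osmotic pump for 14 days. The groups were soy plus E2, casein plus E2, soy without E2 and casein without E2, with 3 arrays each, and each array held a pool of RNA. The series asks whether soy protein isolate acts on mammary gene expression as E2 does. One label field calls the data hepatic, but mammary gland is the source given for all 12 arrays and was taken as the tissue.

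Myoepithelial cells keep the keratins and p63 of a basal epithelium and add the actin and myosin machinery of smooth muscle, and they squeeze milk from the alveolus when oxytocin binds its receptor. Vessel smooth muscle uses the same contractile genes and lacks the basal keratins and p63, so in RNA of a whole gland the contractile genes have a source that the keratins do not. More or fewer cells of a type and more or less RNA per cell cannot be told apart in such RNA.

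The values are log2 values that were centred on 0 for each probe set. Values thus compare arrays within a gene, and nothing can be said of how strongly a gene was expressed or whether its cell type was present. Casein plus E2 pools 2 and 3 were near copies of each other, with an SD of the difference over all probe sets of 0.163, against at least 0.302 in the other 65 pairs of arrays. They were counted as 1 sample, so n was 2 for casein plus E2 and 3 for each other group, and precision is limited by these numbers. The labels do not say whether the pools of one group came from separate rats, and the p-values cover only the spread among pools, which may be technical. Some arrays stood apart for other tissues. A list of 11 liver genes averaged 6.03 in casein pool 3, and a list of 14 skeletal muscle genes averaged 3.70 in soy pool 2, 3.53 in casein pool 2 and 1.65 in casein pool 1. A list of 8 lymphocyte genes split the arrays, with means of 0.98 and 1.46 in soy plus E2 pools 3 and 1, 0.77 and 0.80 in casein plus E2 pools 2 and 3, and 2.0 and 2.40 in soy pools 2 and 3. On the other 6 arrays it averaged -1.78 to -1.04. Bacterial spike-in transcripts were above 0 on 6 arrays and below 0 on 6. Their mean was 1.11 in casein pool 2, and between -0.22 and 0.26 on every other array.

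The basal keratin genes and Tp63 rose with E2 over both diets. Krt14, the type I keratin that pairs with Krt5 in basal cells, rose by 1.08 ± 0.21 on the log2 scale (± SE, a 2.12-fold change), Krt5 by 0.99 ± 0.28, Krt17, a keratin of basal and stressed epithelium, by 0.96 ± 0.17, and Tp63, which encodes the p63 factor that basal epithelium needs, by 0.68 ± 0.13. In limma with Benjamini-Hochberg adjustment over all 14217 genes, the adjusted p-values were 0.0135 for Krt17, 0.0147 for Tp63, 0.0168 for Krt14 and 0.0487 for Krt5. These 4 were the called genes among the 10, against 6.73% of all genes called higher with E2.

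Krt14 stood at 0.46, 0.64 and 0.29 in soy plus E2 pools 1 to 3, against -0.29, -0.77 and -1.36 in soy pools 1 to 3. It stood at 0.33, 0.31 and 0.31 in casein plus E2 pools 1 to 3, against -0.31, -1.13 and -0.29 in casein pools 1 to 3. Every array with E2 was above every array without it, and the spread lay almost wholly among the arrays without E2.

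Krt17 stood at 0.28, 0.91 and 0.29 in soy plus E2, against -0.38, -0.65 and -1.15 in soy. Its values were 0.25, 0.23 and 0.47 in casein plus E2, against -0.26, -0.68 and -0.23 in casein. As for Krt14, E2 and vehicle arrays did not overlap.

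Tp63 stood at 0.15, 0.42 and 0.09 in soy plus E2, against -0.48, -0.46 and -0.85 in soy. In casein plus E2 it stood at 0.18, 0.42 and 0.10, against -0.04, -0.67 and -0.28 in casein. The groups did not overlap here either, so 3 of the 10 genes separated the samples with E2 from those without, against 4.26% of all genes that did so on the higher side.

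Krt5 stood at -0.02, 0.61 and 0.33 in soy plus E2, against -0.33, -0.75 and -1.61 in soy. It stood at 0.42, 0.02 and 0.04 in casein plus E2, against 0.03, -1.25 and -0.45 in casein. Soy plus E2 pool 1 fell just below casein pool 1, so Krt5 overlapped once diets were put together, and it was not separated as the other keratins were.

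**Figure D1:**
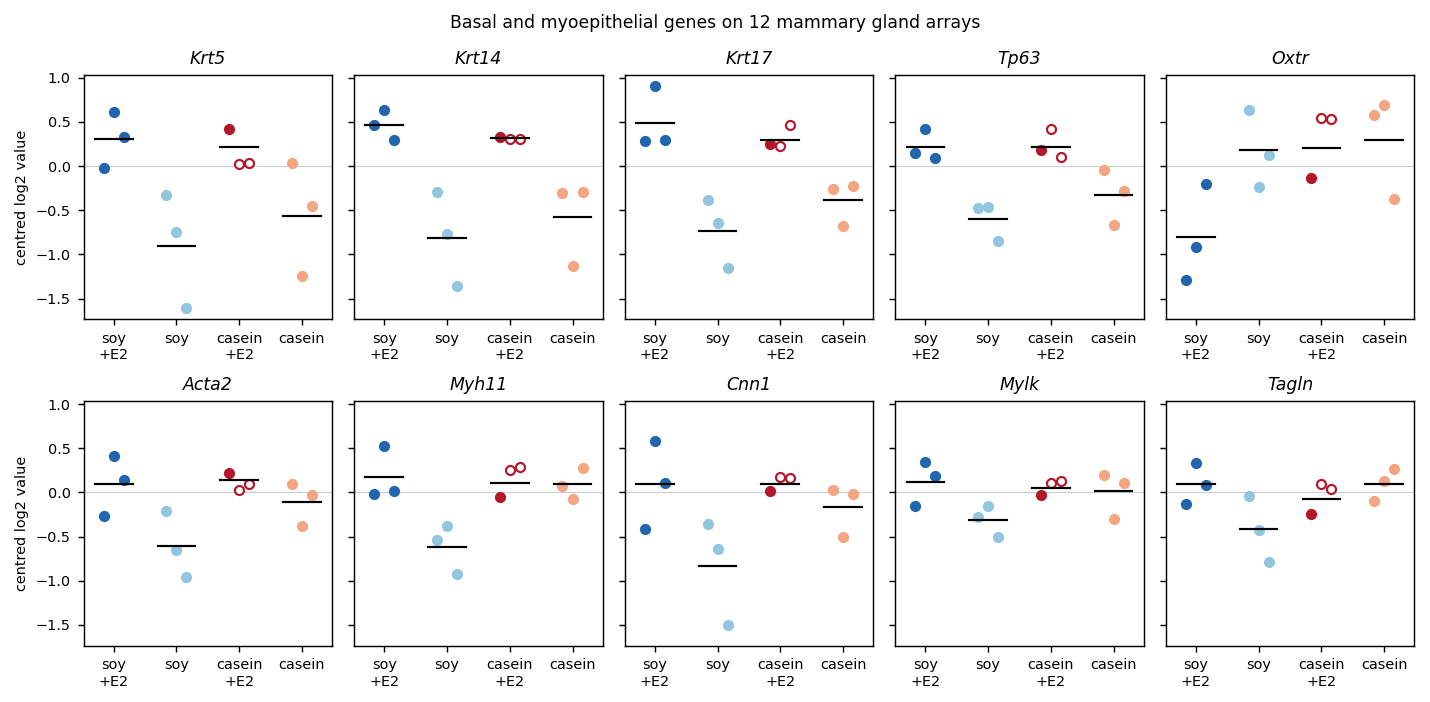
Centred log2 value (y axis) of each of the 10 genes on each array, by group (x axis), with a bar at the group mean. Open circles are casein plus E2 pools 2 and 3, which count as 1 sample in the mean. Krt14, Krt17 and Tp63 have all E2 arrays above all vehicle arrays, the contractile genes are lowest in soy without E2, and Oxtr is lowest in soy plus E2 pools 1 and 2.

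Within a single diet no keratin passed the test over all genes. In soy-fed rats the changes with E2 were 1.27 ± 0.28 for Krt14, 1.22 ± 0.23 for Krt17, 1.21 ± 0.38 for Krt5 and 0.82 ± 0.17 for Tp63 (limma adjusted p = 0.0734 to 0.136), where 0.183% of all genes were called higher. In casein-fed rats they were 0.90 ± 0.32 for Krt14, 0.78 ± 0.42 for Krt5, 0.69 ± 0.26 for Krt17 and 0.55 ± 0.19 for Tp63 (adjusted p = 0.148 to 0.346), where 1.48% were called higher. In both diets all 4 genes had E2 samples above the vehicle samples of the same diet, against 12.6% of all genes in soy-fed and 22.5% in casein-fed rats. For Krt5 in casein-fed rats this rests on the mean of the near-copy pools, since casein plus E2 pool 2 (0.02) alone lay below casein pool 1 (0.03). At an unadjusted p under 0.05 all 4 were higher in soy-fed rats, and Krt14, Krt17 and Tp63 were in casein-fed rats, where 10.6% of all genes were.

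The lowest vehicle arrays weigh on these sizes. Casein pool 2 and soy pool 3 were the lowest arrays of their groups for all 4 genes. Casein pool 2 was also the array of highest spike-in mean (1.11), and the part of that in its values was not tested. The luminal list of 22 genes was lowest on the same arrays, at -1.22 in soy pool 3 and -0.86 in casein pool 2, so low basal keratins went with low luminal genes there, and the part of that in the keratin changes was not tested. Without soy pool 3 the change in soy-fed rats was 0.99 for Krt14, 1.01 for Krt17, 0.85 for Krt5 and 0.69 for Tp63. Without casein pool 2 the change in casein-fed rats was 0.62 for Krt14, 0.54 for Krt17, 0.43 for Krt5 and 0.38 for Tp63, of which Krt5 moved by over 1.5 times.

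For the average over both diets, Krt14, Krt17 and Tp63 each passed without 11 of the 12 arrays in turn, while Krt5 passed without 4. Without casein plus E2 pool 1, which leaves that group 1 sample, none of the 4 passed, with changes of 1.08 for Krt14, 0.98 for Krt17, 0.90 for Krt5 and 0.70 for Tp63 and adjusted p-values of 0.0531 to 0.168. Within the 6 arrays above 0 for spike-ins, E2 minus vehicle was 0.99 for Krt14, 0.97 for Krt17, 1.02 for Krt5 and 0.67 for Tp63. Within the arrays below 0 it was 1.42 for Krt14, 1.21 for Krt17, 1.30 for Krt5 and 0.82 for Tp63. The first set held 2 E2 and 4 vehicle samples and the second 3 and 2. The vehicle samples were casein pools 1 to 3 and soy pool 1 in the first, and soy pools 2 and 3 in the second. Spike-in sign and diet are thus mixed in this split. The sign also drops the size of the spike-in mean, so the split does not account for the high mean of casein pool 2.

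The 2 probe sets of Tp63 differed. One changed by 1.09 ± 0.25 with E2 over both diets, and the other by 0.28 ± 0.09. Tested over all probe sets alone, the one with the larger change passed (limma adjusted p = 0.03) and the other did not (adjusted p = 0.0974). The mean used for the gene thus stands between a probe set that moved as far as the keratins and a flatter one.

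The 5 contractile genes did not pass with E2. Over both diets Cnn1, which encodes the actin-binding protein calponin, changed by 0.59 ± 0.24, smooth muscle actin Acta2 by 0.48 ± 0.17, smooth muscle myosin heavy chain Myh11 by 0.41 ± 0.14, myosin light chain kinase Mylk by 0.24 ± 0.13, and transgelin Tagln by 0.17 ± 0.15. All 5 values were positive, none of the 5 was called (limma adjusted p = 0.093 to 0.50) and 3 had an unadjusted p under 0.05, where 15.0% of all genes did on the higher side. Their median change was 0.41, against 0.97 for the 4 keratin and Tp63 values and 0.004 for all genes. Whether the contractile genes changed less than the keratins was not tested.

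Among the contractile genes, Myh11 was the one whose E2 and vehicle samples separated in a diet. This was in soy-fed rats, where 12.6% of all genes separated on the higher side. It stood at -0.02, 0.53 and 0.01 in soy plus E2, against -0.54, -0.38 and -0.93 in soy. In casein plus E2 it stood at -0.05, 0.25 and 0.29, against 0.07, -0.07 and 0.27 in casein. The soy samples lay apart from and below the soy plus E2 samples, while both casein groups shared a range.

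Acta2 stood at -0.27, 0.41 and 0.14 in soy plus E2, against -0.21, -0.65 and -0.96 in soy. It stood at 0.22, 0.03 and 0.10 in casein plus E2, against 0.09, -0.38 and -0.03 in casein. Its groups overlapped in both diets, through soy plus E2 pool 1 and casein pool 1.

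Cnn1 stood at -0.41, 0.58 and 0.11 in soy plus E2, against -0.36, -0.64 and -1.5 in soy, the widest spread of a contractile gene. It stood at 0.02, 0.17 and 0.16 in casein plus E2, against 0.03, -0.51 and -0.02 in casein. Soy plus E2 pool 1 lay inside the range of soy without E2.

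Tagln stood at -0.13, 0.33 and 0.08 in soy plus E2, against -0.04, -0.43 and -0.79 in soy. In casein plus E2 it stood at -0.24, 0.10 and 0.04, against -0.10, 0.13 and 0.26 in casein, where the E2 mean was the lower one. Mylk kept to the narrowest range, with -0.16, 0.34 and 0.19 in soy plus E2, against -0.28, -0.15 and -0.50 in soy. Mylk in casein plus E2 stood at -0.03, 0.11 and 0.13, against 0.20, -0.30 and 0.11 in casein, with overlap in both diets.

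In soy-fed rats the changes with E2 were 0.93 ± 0.32 for Cnn1, 0.79 ± 0.19 for Myh11, 0.70 ± 0.22 for Acta2, 0.51 ± 0.20 for Tagln and 0.43 ± 0.17 for Mylk (limma adjusted p = 0.0942 to 0.191). None passed, and all 5 had an unadjusted p under 0.05, where 10.4% of all genes did on the higher side. In casein-fed rats the changes were 0.26 ± 0.35 for Cnn1, 0.25 ± 0.25 for Acta2, 0.04 ± 0.19 for Mylk, 0.02 ± 0.21 for Myh11 and -0.18 ± 0.22 for Tagln (adjusted p = 0.631 to 0.973), and none had an unadjusted p under 0.05. Without soy pool 3 the values in soy-fed rats were 0.59 for Cnn1, 0.63 for Myh11, 0.52 for Acta2, 0.33 for Tagln and 0.34 for Mylk.

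**Figure D2:**
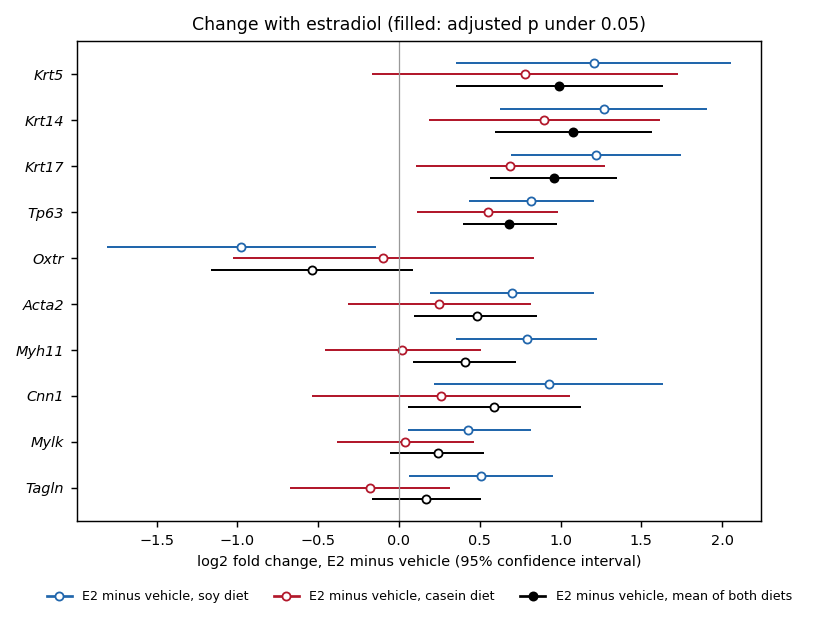
Log2 fold change, E2 minus vehicle, with its 95% confidence interval (x axis) for each of the 10 genes (y axis) in soy-fed rats, in casein-fed rats and averaged over both. Filled points passed an adjusted p under 0.05, which only Krt5, Krt14, Krt17 and Tp63 did, for the average.

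The difference of the E2 effect between diets was positive for all 5 contractile genes. It was 0.77 ± 0.28 for Myh11 (95% interval 0.13 to 1.41) and 0.70 ± 0.29 for Tagln (0.04 to 1.35), with unadjusted p-values of 0.0231 and 0.0408. Neither passed (limma adjusted p = 0.687 and 0.754), and no gene of the whole array was called (0.0%), where 2.91% had an unadjusted p under 0.05 on the higher side. Keratin and Tp63 values ran from 0.27 to 0.53 with intervals that held 0. These do not show that E2 acted alike in both diets. Positive values were not particular to the contractile genes. Of lists described below, 21 of 22 vessel smooth muscle genes (median 0.55) and 14 of 14 endothelial genes (0.75) were positive. So were 17 of 20 genes shared by myoepithelium and smooth muscle (0.35) and 14 of 22 luminal genes (0.05). At an unadjusted p under 0.05 in limma, 9 vessel, 9 endothelial, 6 shared and 1 luminal gene were higher.

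Soy without E2 was the low group for the contractile genes. Against casein without E2 the changes were -0.71 ± 0.19 for Myh11, -0.66 ± 0.32 for Cnn1, -0.52 ± 0.20 for Tagln, -0.50 ± 0.22 for Acta2 and -0.32 ± 0.17 for Mylk, and those of the keratins and Tp63 ran from -0.34 to -0.23. None of the 10 was called in limma (adjusted p = 0.406 to 0.938), nor was any gene of the array (0.0%). Myh11 and Tagln had an unadjusted p under 0.05, where 3.14% of all genes did on the lower side, and Myh11 alone had all soy samples below all casein samples, as 5.51% of all genes had. These soy pools are also the vehicle pools of the E2 comparison in soy-fed rats, so the low soy values enter both comparisons. Other lists were mostly lower in soy too, with 21 of 22 luminal genes (median change -0.32) and 17 of 20 other basal genes (-0.26). The same held for 17 of 20 genes shared by myoepithelium and smooth muscle (-0.24) and 19 of 22 vessel smooth muscle genes (-0.20). Of 10 fibroblast genes 2 were lower (0.08). The lymphocyte list moved with this comparison, with all 8 genes higher in soy (median change 2.27), 0 called and 3 at an unadjusted p under 0.05 in limma, where 7.21% of all genes were on the higher side. Its mean was highest in soy pool 3, the lowest array for the keratins and the contractile genes, and -1.78 in soy pool 1, and its part in the soy values was not tested. Without soy pool 3 the soy change was -0.55 for Myh11, -0.34 for Tagln, -0.33 for Cnn1 and -0.32 for Acta2, and that of Krt5 and Krt14 was 0.02 and 0.05.

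Under E2 the diets differed little in 9 of the 10 genes. Soy plus E2 minus casein plus E2 ran from -0.05 to 0.19 for the keratins, Tp63 and the contractile genes, with limma adjusted p-values of 0.999 or more. The intervals ran as wide as -0.86 to 1.03 for Krt5 and -0.79 to 0.79 for Cnn1, so changes inside these intervals were not detectable with these arrays.

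Oxtr, which encodes the oxytocin receptor, did not go with the other genes. It stood at -1.29, -0.92 and -0.20 in soy plus E2, against 0.64, -0.24 and 0.13 in soy. It stood at -0.13, 0.54 and 0.53 in casein plus E2, against 0.58, 0.69 and -0.37 in casein. The lowest values were those of soy plus E2 pools 1 and 2, and soy plus E2 pool 3 lay inside the range of the soy pools.

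The change of Oxtr with E2 was -0.98 ± 0.37 in soy-fed rats, -0.10 ± 0.41 in casein-fed rats and -0.54 ± 0.28 on average (limma adjusted p = 0.184, 0.932 and 0.234). In soy-fed rats its unadjusted p was under 0.05, as for 10.2% of all genes on the lower side. Soy plus E2 minus casein plus E2 was -1.0 ± 0.41 for Oxtr (95% interval -1.93 to -0.08), with no overlap of the samples, as 12.8% of all genes had on the lower side. Its unadjusted p was 0.036, where 2.84% of all genes were under 0.05 on the lower side, its limma adjusted p was 0.95, and 0.00703% of all genes were called in that comparison. The difference of its E2 effects between diets was -0.88 ± 0.55, which did not pass either.

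Over the 11 samples Oxtr had r between -0.51 and -0.10 with the other 9 genes (Pearson, a description over samples that share their groups). With the lists, Oxtr had its highest r with the adipocyte list of 12 genes (0.78, and 0.91 after group means were taken out). It had 0.66 (0.75) with the Schwann list, 0.62 (0.58) with the skin list and 0.46 (0.67) with the vessel list. The adipocyte list averaged between -1.53 and 0.07 in soy plus E2 and between -1.01 and -0.52 in casein plus E2, against 0.01 to 0.62 in soy and 0.01 to 0.89 in casein. The part of any of these cell types in the Oxtr values was not tested.

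Of 17 measured genes of oxytocin and contraction signalling 1 rose and 1 fell with E2 over both diets (median change -0.07, against 0.004 for all genes, of which 12.2% were called). Ppp1cb, a catalytic subunit of the myosin phosphatase, rose by 0.54 ± 0.07 (limma adjusted p = 0.0064), and Plcb4, a phospholipase C that acts below G proteins of the Gq class, fell by 0.48 ± 0.09 (adjusted p = 0.0172). The Gq subunit gene Gnaq (0.0 ± 0.10), the factor gene Srf (0.03 ± 0.06) and its coactivator gene Mrtfa (-0.26 ± 0.15) did not pass, and they were named after their values were seen. Without casein plus E2 pool 1 the number called was 1.

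Most genes of vessel smooth muscle and pericytes moved the other way from the basal keratins. Of 22 measured genes of the list, which holds none of the 10 genes, 14 fell and 1 rose with E2 over both diets, with a median change of -0.58, against 5.51% of all genes called lower. Rgs5, a regulator of G protein signalling in pericytes, fell by 1.01 ± 0.17, and Ndufa4l2, a mitochondrial protein gene of pericytes, fell by 0.95 ± 0.16. The soluble guanylate cyclase subunit genes Gucy1b1 and Gucy1a1, whose product answers nitric oxide, fell by 0.99 ± 0.16 and 0.61 ± 0.08 (limma adjusted p = 0.00534 to 0.0117 for these 4 genes). The riser was Itga8, an integrin gene (0.95 ± 0.20), and it was named after its value was seen. Pdgfrb (-0.12 ± 0.07) and Notch3 (-0.06 ± 0.09), also of the list, did not pass (limma adjusted p = 0.333 and 0.67). In soy-fed rats they changed by 0.13 and 0.14, and they too were named after their values were seen. Without casein plus E2 pool 1 the number called was 4.

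Rgs5 stood at -0.67, -0.23 and -0.04 in soy plus E2, against 0.81, 0.04 and 0.36 in soy. In casein plus E2 it stood at -0.85, -0.82 and -0.91, against 0.26, 0.82 and 0.30 in casein. Every E2 array was below every vehicle array, the reverse of Krt14. Myocd, the coactivator gene that drives the contractile genes in vessel muscle, changed by -0.27 ± 0.10 and did not pass (adjusted p = 0.096), and it was named after its value was seen.

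The vessel list averaged between -0.49 and -0.43 in casein plus E2, against 0.24 to 0.45 in casein, and between -0.46 and 0.05 in soy plus E2, against -0.01 to 0.21 in soy. In casein-fed rats its median change was -0.92 with 7 of 22 genes called lower, against 0.95% of all genes. In soy-fed rats it was -0.24 with 0 called lower, against 0.0352% of all genes. There 8 were lower and 1 higher at an unadjusted p under 0.05 in limma, against 10.2% and 10.4% of all genes. The endothelial list of 14 genes, the other cell type of the vessel wall, had a median change of -0.48 over both diets. Of its genes 6 were called lower, against 5.51% of all genes, with Cldn5 lower by 0.87 and Ptprb by 0.76. Leaving out soy plus E2 pool 1 left 3 endothelial genes called, and casein plus E2 pool 1 left 1. Des, Casq2 and Pln of the vessel list are also striated muscle genes, and the skeletal muscle list was high in casein pools 1 and 2 and soy pool 2. The part of that in these 3 values was not tested.

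**Figure D3:**
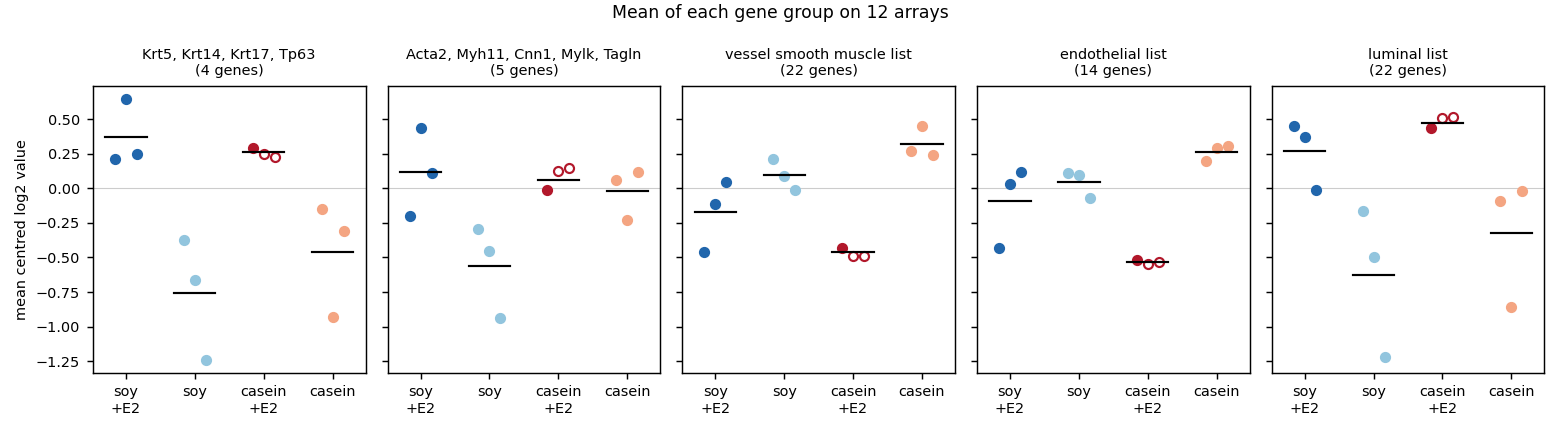
Mean centred log2 value (y axis) of the 4 keratin and Tp63 genes, the 5 contractile genes, and the vessel smooth muscle, endothelial and luminal lists on each array, by group (x axis), with a bar at the group mean. Open circles are casein plus E2 pools 2 and 3, which count as 1 sample. The vessel and endothelial means are lowest in casein plus E2, where the keratin and luminal means are high and the contractile mean lies near that of casein.

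The keratin and contractile means can be set side by side in casein-fed rats. The keratin and Tp63 mean stood at 0.29, 0.25 and 0.23 with E2, against -0.15, -0.93 and -0.31 without it. The contractile mean stood at -0.01, 0.13 and 0.15 with E2, against 0.06, -0.23 and 0.12 without it. The keratin minus the contractile mean was positive on all 6 arrays with E2 (0.08 to 0.41) and negative on all 6 without (-0.71 to -0.08), in both diets, which was not tested. How much of the contractile signal came from vessel muscle was not tested.

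Averaged over both diets, genes shared by myoepithelium and smooth muscle lay between these sides. Of 20 such genes 2 fell and 0 rose (median change -0.10), a share near the 12.2% of all genes called, of which 5.51% were called lower. The diets differed in sign. The median was -0.26 in casein-fed rats, with 16 of 20 genes lower, and 0.12 in soy-fed rats, with 8 of 20 lower. The 2 called genes were Synpo2, an actin-binding protein gene of smooth muscle, lower by 0.42 ± 0.10, and the collagen receptor gene Itga1, lower by 0.54 ± 0.13. Actg2, a smooth muscle actin gene, changed by 0.71 ± 0.24 and did not pass (limma adjusted p = 0.0815), with 0.99 in soy-fed and 0.42 in casein-fed rats, and it was named after its value was seen. None was called when any 1 of soy plus E2 pools 1 and 2, casein plus E2 pool 1, soy pool 2 or casein pool 2 was left out, and 1 was when soy pool 3 was.

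**Figure D4:**
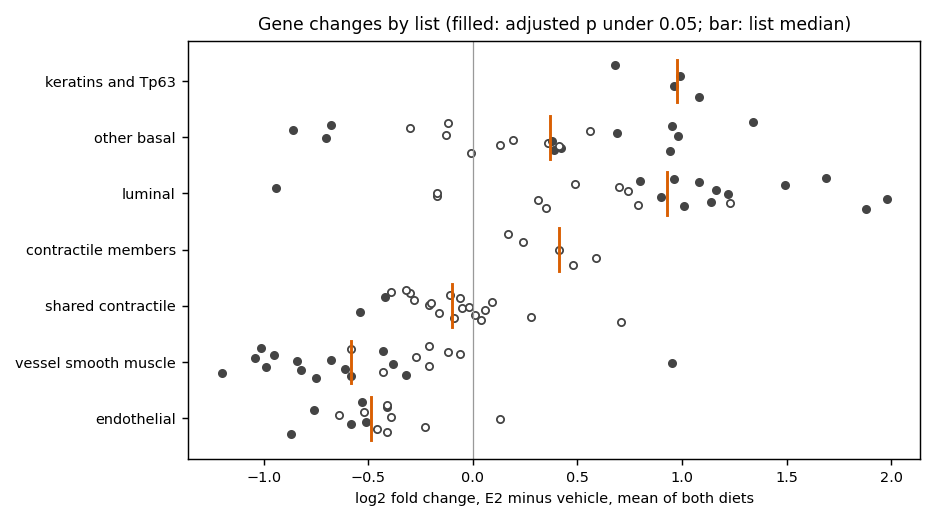
Log2 fold change, E2 minus vehicle, averaged over both diets (x axis), of each gene of 7 groups (y axis), with the group median as a bar. Filled points passed an adjusted p under 0.05. Keratins with Tp63 have a median of 0.97, the contractile genes one of 0.41, the shared contractile list one of -0.10 and the vessel list one of -0.58.

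Other basal genes were split. Of 20 measured genes of basal epithelium outside the 10, 8 rose and 3 fell with E2 over both diets (median change 0.37), against 6.73% of all genes called higher and 5.51% called lower. Among the risers were Perp, a p63 target of desmosomes, by 0.95 ± 0.20, the hemidesmosome collagen gene Col17a1 by 0.94 ± 0.21, the linker gene Dst by 0.39 ± 0.08 and the laminin receptor gene Itga6 by 0.38 ± 0.08 (limma adjusted p = 0.0197 to 0.0254). The 3 that fell, named after their values were seen, were Mme by 0.86, the Notch ligand gene Jag1 by 0.70 and Procr by 0.68. The part of other cell types in the genes that rose or fell was not tested. Leaving out soy plus E2 pool 2 or casein plus E2 pool 1 left 0 called, soy plus E2 pool 1 left 3, casein pool 2 left 4 and soy pool 2 left 5.

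The luminal list rose along with the basal keratins, with a median change of 0.93 over both diets. Of its 22 genes 12 were called higher and 1 lower, against 6.73% and 5.51% of all genes. Elf5, a transcription factor gene of the secretory lineage, rose by 1.98 ± 0.34 and the surface protein gene Cd24 by 1.88 ± 0.30. Its array means had r between 0.90 and 0.96 with the keratins and Tp63, and between 0.55 and 0.81 with the contractile genes. The gene that fell was Krt7, by 0.94, named after its value was seen. Leaving out casein plus E2 pool 1 left 3 called, either of soy plus E2 pools 1 and 2 left 6, and casein pool 2 left 8.

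Skin is the other tissue rich in Krt5, Krt14 and Krt17. Of 10 skin and hair genes, among them Krt1, Krt10 and Krt25, 0 were called (limma, 0 at an unadjusted p under 0.05 in either direction), the median change was 0.04, and the list mean stayed between -0.09 and 0.11 on all 12 arrays. Krt10 itself ranged more widely, from -0.77 in soy plus E2 pool 1 to 0.51 in casein pool 2 and 1.23 in soy pool 1. Schwann cells, the glia of nerves, also use Sox10 and Ngfr of the basal list. Over both diets Sox10 rose by 1.34 ± 0.34 with E2 (limma adjusted p = 0.0346), and Ngfr changed by -0.30 ± 0.09 and did not pass (0.0708). Of 7 Schwann genes Egr2 rose, and Mbp, Prx and S100b fell (median -0.27). Of 10 fibroblast genes 7 fell (median -0.57), and of 12 adipocyte genes 9 fell (median -1.11). Over all genes 6.73% were called higher with E2 and 5.51% lower.

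Among themselves the 4 keratin and Tp63 genes had Pearson r between 0.93 and 0.97 over the 11 samples, and between 0.83 and 0.90 after the group means were taken out. The 5 contractile genes had 0.69 to 0.97 with each other, and 0.45 to 0.93 after group means were taken out. Between the 2 sets r was 0.53 to 0.91, with the lowest values for Tagln. After group means were taken out it was 0.36 to 0.94 with a median of 0.78, against a median of 0.77 among the contractile genes. With the vessel list the contractile genes had r between -0.24 and 0.13 and the keratins and Tp63 between -0.64 and -0.48. After group means were taken out these were 0.12 to 0.49 for the contractile genes and -0.08 to 0.23 for the keratins and Tp63. With the other basal genes the contractile genes had r between 0.77 and 0.97, and 0.68 to 0.96 after group means were taken out. With the shared contractile list they had 0.41 to 0.71 (0.65 to 0.84 after group means were taken out). With the endothelial list they had -0.14 to 0.23 (0.44 to 0.65), where the keratins and Tp63 had -0.50 to -0.35 (0.16 to 0.40). Samples of all these values share arrays and groups, and they are given as a description.

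The genes outside the 10 whose values were most like the mean of the keratins and Tp63 were Igfbp2, an insulin-like growth factor binding protein gene (r = 0.984), the laminin-332 chain gene Lamb3 (0.981), Rin2 (0.972), Col17a1 (0.968) and the galectin gene Lgals7 (0.967). Their changes with E2 over both diets ran from 0.60 for Rin2 to 1.30 for Lgals7, which their choice by likeness to a mean that separates E2 from vehicle brings with it. Most like the contractile mean were the basal keratin gene Krt15 (r = 0.962), the transcription factor gene Tead1 (0.943), Ctnnal1 (0.938), the receptor phosphatase gene Ptprz1 (0.937) and the calcium release channel gene Ryr3 (0.933). Krt15 changed by 0.98 ± 0.26 with E2. Without the 2 samples farthest from the median, soy pool 3 and soy plus E2 pool 2, r was 0.937 to 0.97 for the first set and 0.751 to 0.906 for the second.

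Upstream sequence was at hand for 6 of the 10 genes (RefSeq, GRCr8). Acta2 and Krt5 are shown as examples of a contractile and a keratin gene. The CArG box is the site of serum response factor, through which smooth muscle genes are driven. Capitals mark matches to it that have at most 1 C or G among the 6 inner bases. The first run is chr1:241172504-241172753 and the second chr7:134730570-134730819, both on the minus strand and both the 250 bases before the gene's start.
Acta2: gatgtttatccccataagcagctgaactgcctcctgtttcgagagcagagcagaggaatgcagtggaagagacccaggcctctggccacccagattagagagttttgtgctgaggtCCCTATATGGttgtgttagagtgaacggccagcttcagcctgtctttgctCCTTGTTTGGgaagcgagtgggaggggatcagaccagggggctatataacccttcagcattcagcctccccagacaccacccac
Krt5: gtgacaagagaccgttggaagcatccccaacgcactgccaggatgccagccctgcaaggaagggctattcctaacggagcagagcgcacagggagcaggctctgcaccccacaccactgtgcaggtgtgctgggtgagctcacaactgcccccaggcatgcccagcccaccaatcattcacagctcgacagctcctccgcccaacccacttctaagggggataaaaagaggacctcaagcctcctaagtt

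Acta2 had 2 such matches, CCCTATATGG and CCTTGTTTGG, starting at -134 and -84 from the gene's start, and Krt5, Tp63, Oxtr, Cnn1 and Mylk had none in this window. The contractile genes Cnn1 and Mylk were thus like Krt5 here, and Acta2 does not stand for them. The match reads the same on both strands, and 8.08% of 33469 upstream windows of that length held one. With no C or G allowed among the inner bases, none of the 6 windows held a match, Acta2 included, where 1.5% of all windows did. These letters describe the windows and show neither binding nor its absence.

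Some probe sets were shared or disagreed. A further 5 probe sets name Acta2 together with the cardiac actin gene Actc1 and were left out of the Acta2 values. One of them was high in casein pool 2 (0.78), soy pool 2 (0.80) and soy pool 3 (0.77), where the Acta2 probe set was low. The 2 probe sets of Myh11 changed by 0.54 ± 0.14 and 0.28 ± 0.18 with E2 over both diets, and tested alone the first passed (limma adjusted p = 0.0428). The 2 probe sets of Mylk changed by 0.33 ± 0.14 and 0.14 ± 0.13, and neither passed. Tested alone in the same way, the probe set of Krt5 did not pass (limma adjusted p = 0.0567), while those of Krt14 and Krt17 did (0.0187 and 0.0154).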

How the data were processed

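The deposited table held 31099 probe sets on 12 Affymetrix arrays, 1 per pool of RNA, with labelling from 8 µg per the labels' protocols. Per the file as deposited, the authors had centred the values on 0, and a log2 scale was taken from the range of -5.98 to 8.01. Of the authors' processing, GCOS is listed by the submitters' processing notes, and summarisation, normalization and log base are not stated there. All probe sets had a median of 0 over the arrays, so dim ones could not be filtered. Probe sets naming 1 gene (20826) were averaged per gene, and 436 naming several and 9780 without a name here were left out.

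With casein plus E2 pools 2 and 3 averaged, 4 group means were estimated per gene from 11 samples in limma 3.58.1 (R 4.3.3, 7 residual degrees of freedom). Tests were two-sided, and genes with a Benjamini-Hochberg adjusted p under 0.05 over all 14217 genes counted as called. Scripts were tested on simulated data. The members and lists were chosen with earlier results of these data known. The text names all 10 members, up to 4 called genes of smallest p per list or 2 where none was called, and the 5 genes most like each set. Gnaq, Srf, Mrtfa, Krt1, Des, Casq2, Pln, Sox10 and Ngfr fall outside that rule. So do Itga8, Myocd, Pdgfrb, Notch3, Actg2, Mme, Jag1, Procr and Krt7, and all of these were named after their values were seen.

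Alternatives were quantile normalization, array medians set to 0, all 12 arrays apart, pool number as a block, the contrast's groups alone, the probe set of largest SD, the sign of the spike-in mean as a covariate, array weights, a minimum change of 1.5-fold, and each array left out. Testing every probe set alone was chosen after seeing the data.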

Additional observations from a re-analysis of the deposited data

How the results depend on the processing

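For E2 over both diets 4 of the 10 genes were called, and 4 to 5 were called under quantile normalization, 12 separate arrays, the block, the probe set of largest SD, the spike-in term, array weights and the 1.5-fold minimum. With array medians set to 0 Krt5 did not pass (0.98, adjusted p = 0.0523) and 3 were called. Leaving out each array gave 0 to 5. Myh11 passed with 12 separate arrays (0.43, adjusted p = 0.0413) and with its probe set of largest SD (0.54), and Acta2 with the spike-in term (0.58, adjusted p = 0.0272) and with array weights (0.43). For E2 in soy-fed rats 0 were called, but 3 with quantile normalization, 3 with 12 separate arrays, 1 with the spike-in term and 7 with array weights, and 0 to 2 when an array was left out. For soy without E2 0 were called and 1 with array weights (Acta2, -0.68). E2 in casein-fed rats, soy with E2 and the interaction had 0 in every run.

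The labels do not state that pool numbers pair the arrays, and the main fit used no pairing. Deviations of same-numbered arrays from their group means had r from -0.42 to 0.46. With 3 arrays per group these values cannot settle whether the arrays were paired. With 12 separate arrays and pool number as a replicate block 4 genes were called for E2 over both diets (Krt5 at 0.96, adjusted p = 0.0368) and 0 in the other comparisons.

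Signs turned for changes near 0. In casein-fed rats Mylk was -0.01 with quantile normalization and -0.08 with array weights, and Oxtr was 0.01 with 12 separate arrays, with or without the block. For soy without E2 Krt5 was 0.05 and Krt14 0.03 with the spike-in term. When an array was left out, values in casein-fed rats ran from -0.43 to 0.23 for Oxtr, -0.06 to 0.18 for Myh11 and -0.11 to 0.14 for Mylk. For soy without E2 they ran from -0.69 to 0.02 for Krt5, -0.51 to 0.05 for Krt14 and -0.46 to 0.08 for Oxtr. The cause of these changes was not tested. No filter on dim probe sets was run, since centred values carry no level.

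Of the lists, the endothelial count for E2 over both diets (6) was 12 with 12 separate arrays, 11 with array weights and 2 at the 1.5-fold minimum. The shared contractile count (2) was 4 with 12 separate arrays, 4 with array weights and 0 at the 1.5-fold minimum, where the oxytocin signalling count (2) was also 0.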
